A study of Mus musculus with 9 samples.

Results

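Chromosome 8 was followed across 9 mouse mammary tumours through all array probes that the files place on it. Of 963261 distinct probes, 914119 lay on the autosomes and 46305 on chromosome 8, from 3.10 to 131.71 Mb, with a median spacing of 1844 bp. The probes were chosen by their chromosome, and the chromosome was chosen for study because its ratios showed a broad gain in most tumours and a many-step profile in 1 of them. Its level against the reference DNA, its steps and its copy levels are therefore described without a test. Positions are those of the array files, whose genome build is not given in the sources used here.

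The arrays compared tumour DNA, labelled with Cy5, with DNA pooled from the tails of tumour-free mice, labelled with Cy3, on 1 array per tumour. All tumours came from mice of mixed strain background that carried floxed Rb and p53 alleles (Rb f/f;p53 f/f), which Cre recombinase removes, and no age is given. In 7 tumours the MMTV promoter drove Cre; it works in the epithelium of the mammary gland and can also be active in other secretory epithelia and in blood cells: 1 tumour of a nulliparous mouse, 1 of a parous mouse and 5 transplants. In 2 further transplants Cre was delivered by an adenovirus (Ad-CMVcre), in which the CMV promoter acts in any infected cell. Whether transplants shared a donor is not stated, and the tests below measure only the spread between these samples. No array of control DNA and no array with swapped dyes was analysed here. A tumour sample also holds DNA of other cells of the mouse, which pulls every ratio toward 0 on the log2 scale.

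A copy ratio reports how many copies of a stretch the tumour DNA holds relative to the pool, after each array is centred on its autosomal median. With 2 copies in the pool, 3 copies in every tumour cell would give a ratio of 1.5, a log2 ratio of 0.58. Tumours that have lost p53, the protein that stops cells with broken or mis-segregated chromosomes, commonly gain or lose whole chromosomes. Rb, which holds E2F transcription factors in check before DNA replication, is the other tumour suppressor deleted in this model. A single chromosome can also carry many steps within a short distance. This can follow repeated cycles of breakage and fusion, or the shattering of a chromosome and the rejoining of its pieces (chromothripsis), which in its simplest form leaves few copy levels that alternate. Array ratios give the copy number of each piece but not the order in which pieces are joined.

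Over all arrays the noise of single probes was 0.158 to 0.183 on the log2 scale, and on chromosome 8 the spots were 21.8 to 32.5 times their local background in the pool channel and 15.8 to 20 times in the tumour channel. Chromosome 11, the chromosome of Trp53, was searched for 4 neighbouring probes that lay below their flanks in at least 7 tumours, and 1 such run was found. Its low signal in most tumours was thus set by the search, and the run was not placed within Trp53. It stood at 30.4% to 58.6% of the flanking signal in 8 tumours and at 96.7% in the library labelled MMTV-Cre transplant 2. If the run marks the deletion, that library goes against its label, and results that rest on it are given with and without it. The arrays were scanned on 3 days: MMTV-Cre transplants 1 and 2 on the first, transplants 3, 4 and 5 on the second, and the nulliparous, parous and Ad-Cre tumours on the third.

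Chromosome 8 was raised over nearly its whole length in 5 of the 9 tumours. The median log2 ratio over its probes was 0.28 in the MMTV-Cre parous tumour, 0.21 in MMTV-Cre transplant 3, 0.32 in MMTV-Cre transplant 4, 0.18 in MMTV-Cre transplant 5 and 0.25 in Ad-Cre transplant 1. It was the highest or second highest of the 19 autosomes in each of these 5. The remaining 4 tumours lay near 0, with 0.04 in the MMTV-Cre nulliparous tumour, 0.06 in MMTV-Cre transplant 1, -0.08 in the library labelled MMTV-Cre transplant 2 and 0.01 in Ad-Cre transplant 2. The 2 sets did not overlap, since the lowest of the 5 raised tumours was 0.18 and the highest of the other 4 was 0.06, and the sets were formed from these same values. With centring on the mode of each array, the median of Ad-Cre transplant 1 was 0.10. Over all tumours the median was 0.14 ± 0.14 (SD, n = 9). Leaving out the library labelled MMTV-Cre transplant 2 gave 0.17 ± 0.12 (SD, n = 8).

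**Figure D1:**
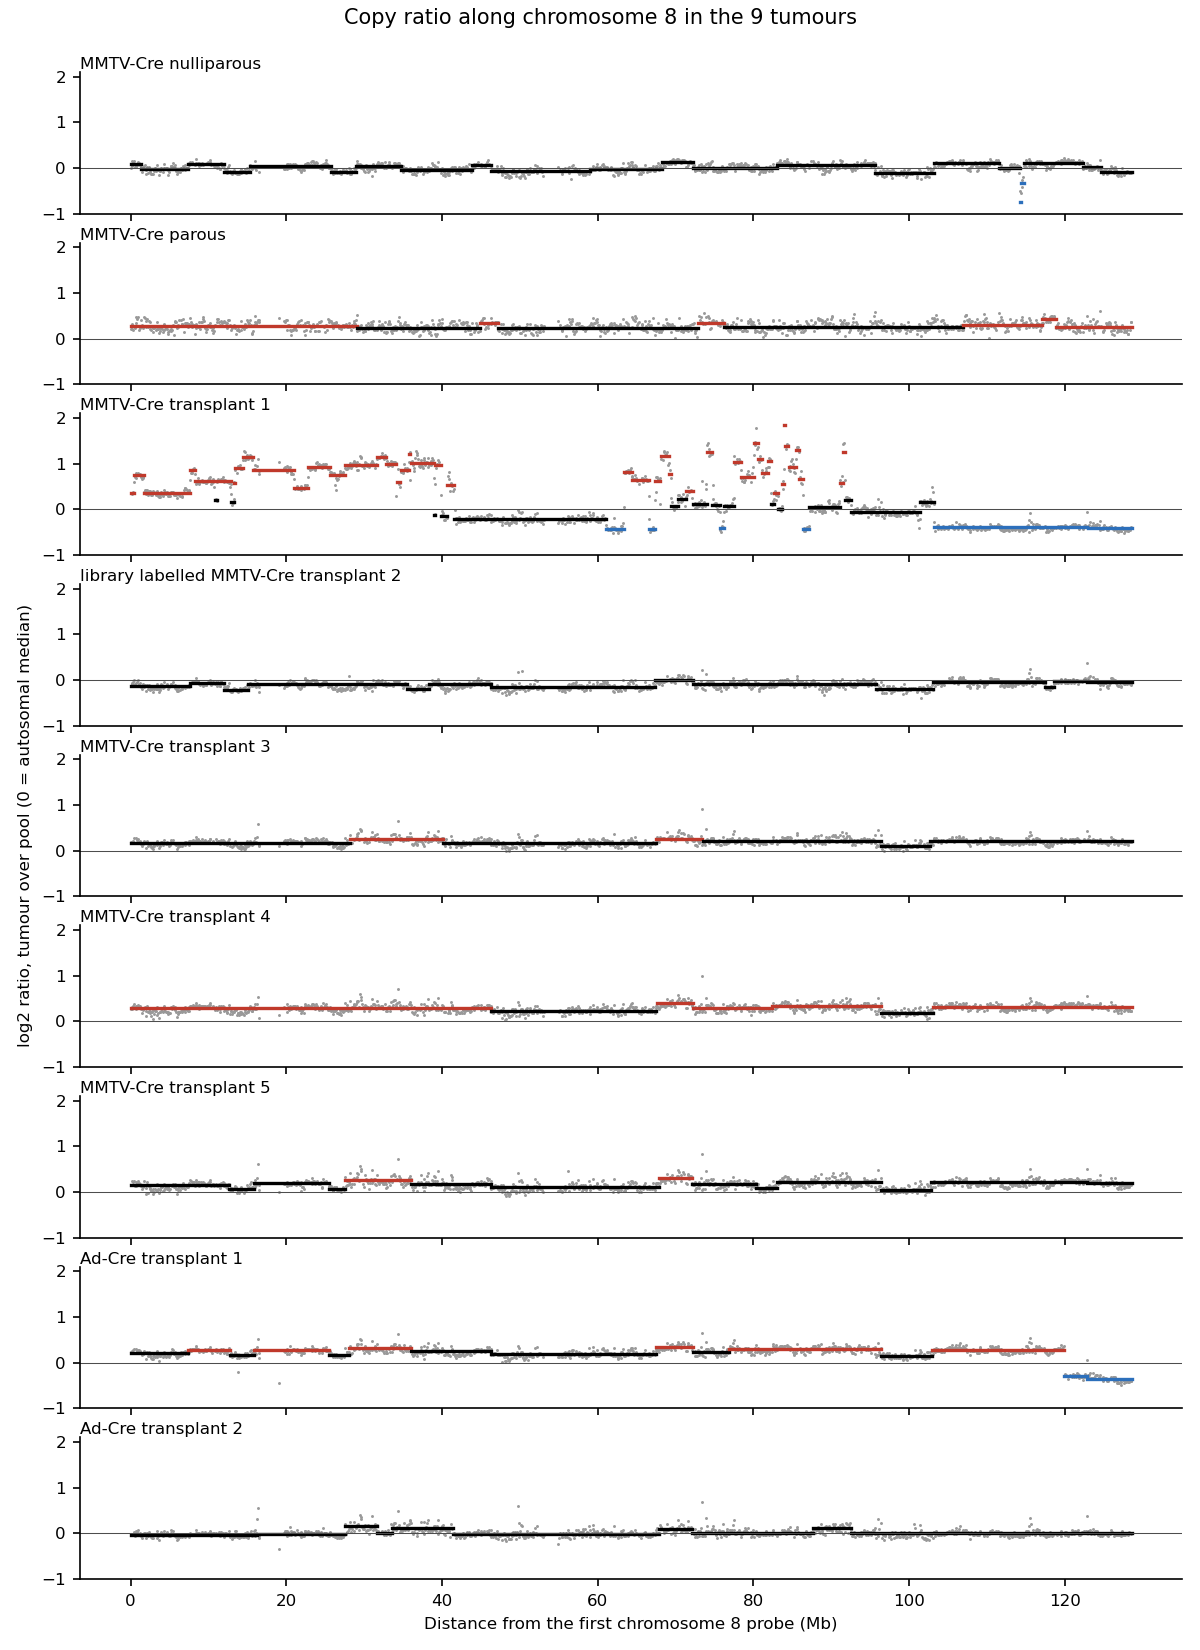
Log2 ratio of tumour over pool DNA along chromosome 8 in each of the 9 tumours, by distance from the first probe in Mb. Grey points are means of 100 kb windows. Lines are segments of 10 or more bins, red at 0.25 or more, blue at -0.25 or less and black between. The segments of the parous tumour and MMTV-Cre transplants 3, 4 and 5 lie above 0 throughout. Those of Ad-Cre transplant 1 fall below 0 near the end, and those of MMTV-Cre transplant 1 step between -0.43 and 1.85.

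The raised level in these 5 tumours lay in the tumour DNA and not in the reference. The tumour channel of chromosome 8 stood at 0.18 to 0.30 above its array's autosomal median (log2), whereas the pool channel stood at 0.000163 to 0.00354. As linear ratios the 5 medians were 1.13 to 1.25, below the 1.5 of a single extra copy in every cell. Between 81.6% and 90.5% of the chromosome's probes had a ratio above 0 in these tumours, compared with 32.5% to 58.7% in the nulliparous tumour, the library labelled MMTV-Cre transplant 2 and Ad-Cre transplant 2.

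The gain was flat rather than focal. In 1 Mb windows, of which 126 held enough probes, the lowest value was 0.16 in the parous tumour, 0.07 in MMTV-Cre transplant 3, 0.17 in MMTV-Cre transplant 4 and 0.01 in MMTV-Cre transplant 5, so that all 126 windows were above 0 in each of these 4 tumours. The spread over windows was small, with an SD of 0.06, 0.05, 0.06 and 0.07 in the same order. No breakpoint, defined as a step of 0.2 or more between neighbouring segments, was found on chromosome 8 in the parous tumour or MMTV-Cre transplant 4. MMTV-Cre transplant 3 had 2 and MMTV-Cre transplant 5 had 3, nearly all of them at short loci described below. These low counts depended on the processing: in the parous tumour and MMTV-Cre transplant 4 they became 2 and 10 without the filter on dim or outlier spots, 5 and 8 at a penalty factor of 5, 4 and 2 after normexp, and 0 and 4 after loess. In MMTV-Cre transplants 3 and 5 they became 14 and 16 without the filter. The raised level reached both ends of the probe set in these 4 tumours by its 1 Mb windows.

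The share of the chromosome called gained was set largely by where a flat level fell against the threshold of 0.25. It was 43.9% in the parous tumour, 13.97% in MMTV-Cre transplant 3, 78.2% in MMTV-Cre transplant 4, 9.86% in MMTV-Cre transplant 5 and 49.97% in Ad-Cre transplant 1. The parous tumour shows how close these calls were: its last segment, from 121.90 to 131.71 Mb, was called at 0.2504, while its longest segment, 30.69 Mb from 79.36 Mb, was not called at 0.2476. At a threshold of 0.15 the same shares were 100% in the parous tumour, 95.1% in MMTV-Cre transplant 3, 100% in MMTV-Cre transplant 4, 72.1% in MMTV-Cre transplant 5 and 88.2% in Ad-Cre transplant 1. At a threshold of 0.4 they were 1.31% in the parous tumour, 0.0553% in MMTV-Cre transplant 3, 0.0136% in MMTV-Cre transplant 5 and 0% in Ad-Cre transplant 1 and MMTV-Cre transplant 4. Other settings moved single shares as well: that of the parous tumour was 11.8% after within-array loess and 92.6% at a penalty factor of 20, and that of Ad-Cre transplant 1 was 0% with centring on the mode and 93.2% after a normexp correction. The shares are therefore read here as a measure of level, not of extent.

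Ad-Cre transplant 1 was the exception among the 5, because its gain ended inside the chromosome. Its segments of at least 10 bins lay between 0.14 and 0.34 up to 123.01 Mb. From there to the end they were at -0.30 and -0.35. Over the distal probes its median was -0.32, against 0.30 in the flank just before, a difference of -0.62. The same difference was between -0.09 and 0.03 in the other 8 tumours. Lost segments made up 6.75% of its chromosome 8. The distal end was thus below the autosomal level in a tumour whose remaining chromosome 8 was above it.

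MMTV-Cre transplant 1 was low over the same distal end, as part of a longer loss. From 106.30 Mb onward its median was -0.39, a linear ratio of 0.771 as a mean over probes, and at the step of Ad-Cre transplant 1 it did not change, with a difference of 0.01. Windows of chromosome 8 called lost in 2 tumours numbered 91, or 7.34% (the matching share over all autosomal windows is not given here). They were those of MMTV-Cre transplant 1 with Ad-Cre transplant 1 at the distal end or with the nulliparous tumour at the loss described next. In the other 7 tumours the distal end from 123.01 Mb was at 0.02 in the nulliparous tumour, 0.26 in that of the parous mouse, -0.02 in the library labelled MMTV-Cre transplant 2, 0.23 in MMTV-Cre transplant 3, 0.36 in MMTV-Cre transplant 4, 0.23 in MMTV-Cre transplant 5 and 0.02 in Ad-Cre transplant 2.

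The nulliparous tumour had a single focal loss on an otherwise level chromosome. It ran from 117.35 to 117.79 Mb over 280 probes and had a deep part, 117.35 to 117.44 Mb at -0.75 ± 0.16 (SD over bins), followed by a shallower part to 117.79 Mb at -0.33 ± 0.13. The median over the whole loss was -0.38 against 0.05 in its flanks. In the other 8 tumours the same probes differed from their flanks by between -0.0016 and 0.10. The loss was therefore seen in 1 tumour of 9. The window at 117.3 Mb was also among the 5 with the lowest means, at -0.01 ± 0.30 (SD, n = 9), with -0.51 in the nulliparous tumour and -0.45 in MMTV-Cre transplant 1, whose whole distal end was low.

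**Figure D2:**
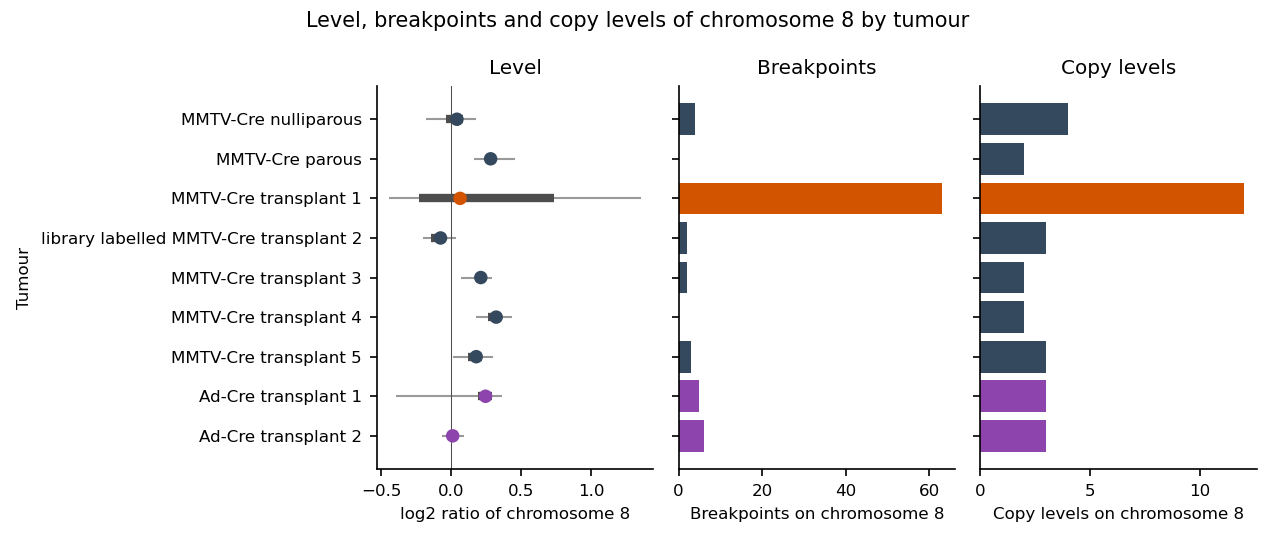
For each tumour, the chromosome 8 median log2 ratio (point) with the range (thin line) and middle quartiles (thick line) of its 1 Mb windows, the number of breakpoints and the number of copy levels; orange marks MMTV-Cre transplant 1, violet the Ad-Cre tumours and dark blue the other MMTV-Cre tumours. MMTV-Cre transplant 1 has 63 breakpoints and 12 copy levels, the others at most 6 and 4.

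The copy profile of MMTV-Cre transplant 1 was of another kind. Chromosome 8 of this tumour was cut into 70 segments with 63 breakpoints, which was 37.5% of the 168 breakpoints on all its autosomes, on a chromosome that holds 5.066% of the autosomal probes. The other 8 tumours had between 0 and 6 breakpoints on chromosome 8. Without the spot filter these counts were 2 to 22 and that of MMTV-Cre transplant 1 was 72, and at a penalty factor of 5 they were 2 to 20 and 82. The SD over 1 Mb windows was 0.53, against 0.03 to 0.16 in the other 8. Its median of 0.06 hid this, since 44 segments covering 54.99 Mb were gained with a mean of 0.80, 7 segments covering 29.9 Mb were lost with a mean of -0.40, and 19 segments covering 43.5 Mb lay between. The mean of the linear ratio over its chromosome 8 probes was 1.26, as high as in MMTV-Cre transplant 4, where it was 1.25.

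The pieces were short and the steps large. The median segment was 827 kb long, the shortest 36.4 kb and the longest 19.65 Mb, and 43 of the 70 were under 1 Mb. Steps up numbered 31 and steps down 32, and their median size was 0.49. The largest, 1.47, led from a 66.0 kb segment at -0.31 into the segment at 71.17 Mb. Breakpoints were not spread evenly: 25 lay in the first 50 Mb, 34 between 60 and 100 Mb and 4 beyond 100 Mb. Between the first 2 of these clusters the profile was flat from 44.70 to 64.13 Mb, at -0.22 ± 0.11 (SD over bins) across 5645 probes.

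Several of the largest steps were sharp at the level of single probes. Each split was placed where nearby probes varied least within the 2 sides, which favours a separation of the sides. At 87.07 Mb the median of the 10 probes before the step was 0.39 and that of the 10 after it was 1.76, across a gap of 967 bp. The highest of the 10 probes before was 0.81 and the lowest of those after was 1.57, so the probes of the 2 sides did not overlap. At 42.06 Mb the level fell from 1.02 to -0.24 across 1364 bp, and there too the lowest probe before, 0.88, was above the highest after, -0.03. At 42.23 Mb it returned from -0.21 to 0.93 across 1793 bp.

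**Figure D3:**
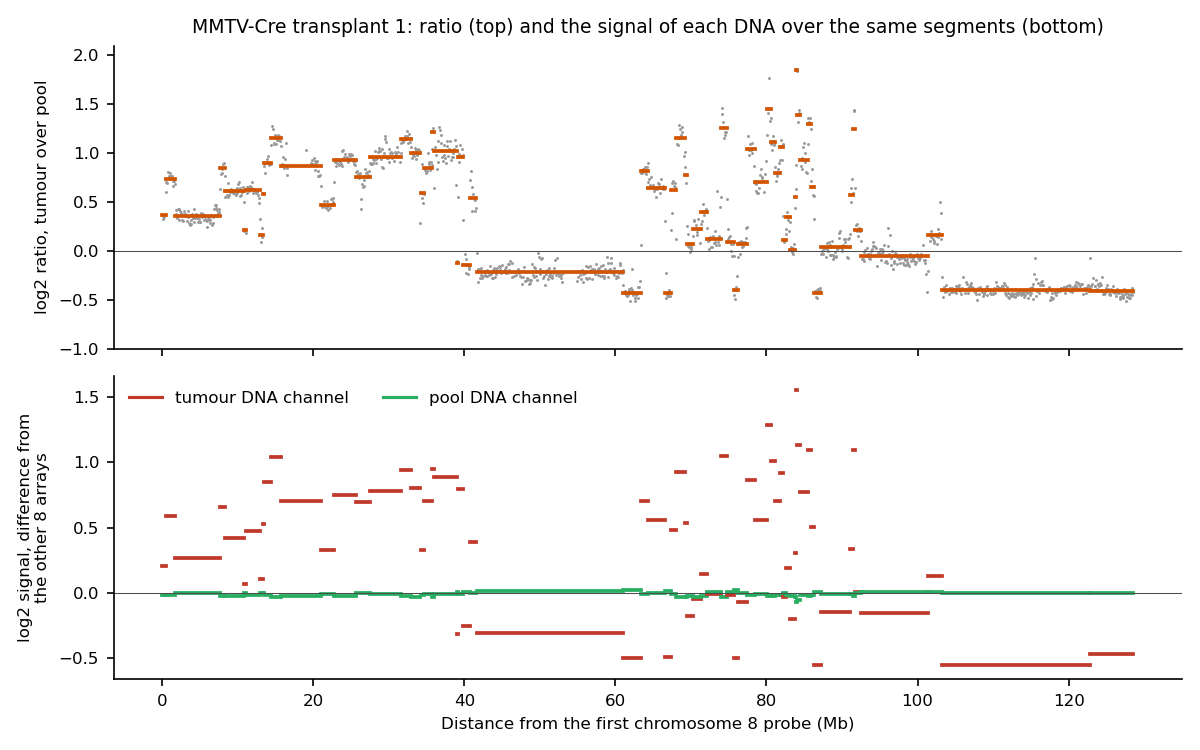
Top, log2 ratio of MMTV-Cre transplant 1 along chromosome 8 (points, 100 kb windows; lines, segments of 10 or more bins), by distance from the first probe in Mb. Bottom, the log2 signal of each DNA over the same segments minus that of the other 8 arrays; the tumour channel spans 2.11 and the pool channel 0.0905.

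The steps lay in the tumour DNA. Over the 66 segments of 10 or more bins, the tumour channel differed from the same probes on the other 8 arrays by between -0.55 and 1.55 on the log2 scale, a range of 2.11 with an SD over segments of 0.514. The pool channel differed by between -0.07 and 0.02, a range of 0.0905 with an SD of 0.0163. No tumour spot on chromosome 8 was saturated on any array.

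Gained segments covered most of the chromosome up to 44.70 Mb, at levels as low as 0.36 over 4.79 to 10.74 Mb. Pieces at 13.89 to 14.22 Mb (0.21) and 16.03 to 16.38 Mb (0.16) were not called gained. From 16.53 Mb the levels climbed through 0.90 to 1.15 ± 0.10 (SD over bins) at 17.53 to 18.78 Mb, then stayed between 0.47 and 1.14 as far as 37.25 Mb. The segment at 34.70 to 35.97 Mb was at 1.14 ± 0.09 and the next, to 37.25 Mb, at 1.002 ± 0.13. Within this high stretch lay narrow drops to below 0: 37.25 to 37.31 Mb at -0.15, 39.04 to 39.08 Mb at -0.13, 42.07 to 42.23 Mb at -0.12 and 42.95 to 43.79 Mb at -0.14. On both sides of the drop at 42.07 Mb the level was near 1, with 1.02 ± 0.16 over 39.08 to 42.07 Mb and 0.97 ± 0.11 over 42.23 to 42.94 Mb. The 4 drops were thus at nearly the same level as each other, and above the -0.22 of the flat stretch that followed.

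Between 64.14 and 90.27 Mb gained, level and lost pieces were interleaved. The lost pieces of 10 or more bins were 64.14 to 66.47 Mb at -0.43 ± 0.10, 69.67 to 70.44 Mb at -0.43 ± 0.18, 78.77 to 79.33 Mb at -0.40 ± 0.14 and 89.46 to 90.27 Mb at -0.43 ± 0.09 (SD over bins). They lay close to the level of the distal end, whose segments were at -0.39 and -0.41. A shorter lost piece of 8 bins, 71.10 to 71.17 Mb, was at -0.31. The first 2 of them enclosed pieces at 0.82 and 0.65, so that the ratio went from lost to gained and back to lost. Pieces near 0 lay among them as well, such as 72.52 to 73.36 Mb at 0.07, 79.34 to 80.57 Mb at 0.07, 86.26 to 86.81 Mb at 0.01 and 90.27 to 94.19 Mb at 0.04.

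The highest pieces of this interleaved part were narrow. The segment at 77.09 to 77.82 Mb was at 1.26 ± 0.13, between neighbours at 0.12 and 0.10. The segment at 80.58 to 81.52 Mb was at 1.04 ± 0.10, and 83.14 to 83.67 Mb was at 1.45 ± 0.20. A rise at 86.82 to 89.45 Mb went through 0.55, 1.85, 1.39, 0.93, 1.30 and 0.65 in 6 successive segments before the loss at 89.46 Mb. The highest, 87.07 to 87.19 Mb, was at 1.85 ± 0.17 over 75 probes, a linear ratio of 3.61. In the window at 87.1 Mb the other 8 tumours were at 0.16 in the nulliparous tumour, 0.25 in that of the parous mouse, 0.00 in the library labelled MMTV-Cre transplant 2, 0.27 in MMTV-Cre transplant 3, 0.44 in MMTV-Cre transplant 4, 0.35 in MMTV-Cre transplant 5, 0.37 in Ad-Cre transplant 1 and 0.06 in Ad-Cre transplant 2. The peak of 1.84 in that window was therefore a feature of MMTV-Cre transplant 1.

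Segments at a log2 ratio of 1 or more numbered 15 and covered 12.45 Mb of chromosome 8 in MMTV-Cre transplant 1. No other tumour had a chromosome 8 segment of 10 or more bins above 0.44. The lowest such segment outside MMTV-Cre transplant 1 was the -0.75 of the focal loss in the nulliparous tumour.

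The segments of MMTV-Cre transplant 1 did not fall into a few copy levels. When the means of all segments, short ones included, were grouped so that no group was wider than 0.2, 12 levels resulted. Chromosome 8 of the other 8 tumours had 2 to 4. In MMTV-Cre transplants 3 and 5 the highest of these was a single segment of 2 bins. As linear ratios the 12 levels were 0.758, 0.860, 0.983, 1.098, 1.31, 1.53, 1.74, 1.96, 2.20, 2.39, 2.68 and 3.61. The spacing of the middle levels follows in part from the width of the groups. In the ordered means of segments of 10 or more bins only 3 gaps were wider than 0.1. They ran from -0.39 to -0.22, from 0.23 to 0.35 and from 1.45 to 1.85. The lowest level was the clearest, with 6 segments between -0.43 and -0.39 that covered 29.8 Mb, 23.2% of the chromosome. A group width of 0.1 gave 18 levels and one of 0.3 gave 10, and counting the peaks of a weighted density of segment means gave 9.

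**Figure D4:**
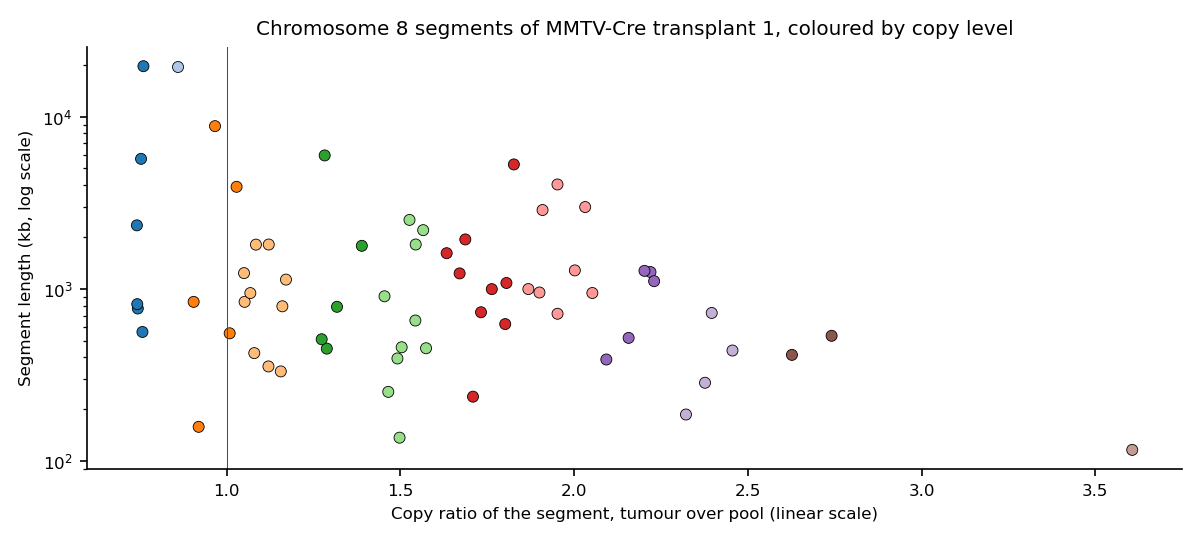
The chromosome 8 segments of MMTV-Cre transplant 1 with 10 or more bins, each a point, by linear copy ratio of tumour over pool and by length in kb on a log scale; colours mark the 12 copy levels. The 6 segments near 0.758 stand together, while the others spread over ratios up to 3.61 without wide gaps below 2.68.

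Alternation between like levels was present but did not dominate. After merging neighbours that differed by less than 0.2, the profile had 64 states. Of the 62 inner ones, 24 lay between neighbours of like level. The longest run of steps that alternated between up and down, whatever the levels reached, was 8. Chromosome 4 of MMTV-Cre transplant 4 came nearest in the number of breakpoints, with 42, and had 9 levels. Its alternating run was 10, and 20 of 41 inner states lay between like neighbours. Chromosome 11 of MMTV-Cre transplant 3 had fewer breakpoints, 27, and 6 levels, but an alternating run of 22. Chromosome 6 of Ad-Cre transplant 2 had 31 breakpoints, 13 levels and an alternating run of 11. Chromosome 9 of the nulliparous tumour had 26 breakpoints and 9 levels. Chromosome 8 of MMTV-Cre transplant 1 thus had the most breakpoints of any autosome in the 9 tumours, while chromosome 6 of Ad-Cre transplant 2 had more levels and its alternating run was shorter than in 3 of the chromosomes named for comparison. Its 37.5% of the tumour's breakpoints was likewise below the 42% that chromosome 4 held in MMTV-Cre transplant 4. Which process produced the profile was not tested.

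The breakpoints of MMTV-Cre transplant 1 had few counterparts among steps of 0.2 or more elsewhere. Smaller steps of the other tumours were left out of this comparison, and some lay at or near the same places. At 30.66 Mb MMTV-Cre transplant 1 rose by 0.21 and MMTV-Cre transplant 5 by 0.19. MMTV-Cre transplant 1 changed by -0.26 at 95.67 Mb, and Ad-Cre transplant 2 by -0.11 at 95.66 Mb. The other 8 tumours had 22 chromosome 8 breakpoints together, and those within 13.1 kb of one in MMTV-Cre transplant 1 all bounded the short locus near 126 Mb described below. The remaining ones nearest to it were 61.1 kb away at 106.24 Mb in the nulliparous tumour and 69.2 kb away at 71.03 Mb in MMTV-Cre transplant 5, with steps of 0.21 and 0.20, just past the threshold.

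The parts at 71.2 to 72.5 Mb and 74.4 to 75.2 Mb had been picked out as gained in most tumours. Over the first, the median was 0.09 in the nulliparous tumour, 0.28 in that of the parous mouse, 1.09 in MMTV-Cre transplant 1, -0.02 in the library labelled MMTV-Cre transplant 2, 0.28 in MMTV-Cre transplant 3, 0.37 in MMTV-Cre transplant 4, 0.24 in MMTV-Cre transplant 5, 0.31 in Ad-Cre transplant 1 and 0.06 in Ad-Cre transplant 2. The mean was 0.30 ± 0.32 (SD, n = 9), and 0.34 ± 0.32 (SD, n = 8) without the library labelled MMTV-Cre transplant 2. One tumour, MMTV-Cre transplant 1, was far above the rest here through its own segment at 71.17 to 72.28 Mb (1.16 ± 0.14, SD over bins). The medians of 5 tumours reached 0.25.

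Over the second part the values in the same order were 0.12 in the nulliparous tumour, 0.27 in that of the parous mouse, 0.38 in MMTV-Cre transplant 1, 0.02 in the library labelled MMTV-Cre transplant 2, 0.28 in MMTV-Cre transplant 3, 0.40 in MMTV-Cre transplant 4, 0.27 in MMTV-Cre transplant 5, 0.34 in Ad-Cre transplant 1 and 0.05 in Ad-Cre transplant 2. The mean was 0.24 ± 0.14 (SD, n = 9), and 0.26 ± 0.12 (SD, n = 8) without the library labelled MMTV-Cre transplant 2. Here 6 medians reached 0.25, of which those of the parous tumour, MMTV-Cre transplant 3 and MMTV-Cre transplant 5 passed it by less than 0.03. By segment, 5 tumours were called gained, since the parous tumour's segment was at 0.23. The windows beside the parts were lower or alike: the mean was 0.14 ± 0.21 just before the first part, 0.22 ± 0.13 just after it and 0.21 ± 0.13 just after the second, and no probe lay in the window just before the second.

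Both parts lay inside a longer stretch that was raised in gained and in level tumours alike. A segment from about 70.65 to 75.32 Mb, the medians of its edges, was found in 7 tumours, all but the parous tumour and MMTV-Cre transplant 1. Relative to the 5 Mb on either side, the stretch stood 0.12 higher in the nulliparous tumour, 0.12 in the library labelled MMTV-Cre transplant 2, 0.09 in MMTV-Cre transplant 3, 0.11 in MMTV-Cre transplant 4, 0.13 in MMTV-Cre transplant 5, 0.11 in Ad-Cre transplant 1 and 0.05 in Ad-Cre transplant 2. It differed by -0.04 in the parous tumour and by 0.00 in MMTV-Cre transplant 1, whose own steps crossed it. The mean was 0.08 ± 0.06 (SD, n = 9), and 0.07 ± 0.06 (SD, n = 8) without the library labelled MMTV-Cre transplant 2. It was 0.10 ± 0.04 (SD, n = 3) in the nulliparous tumour, the library labelled MMTV-Cre transplant 2 and Ad-Cre transplant 2, and 0.07 ± 0.07 (SD, n = 6) in the other 6. In Ad-Cre transplant 1 and MMTV-Cre transplants 3 and 5 the flanks lay between 0.12 and 0.25 and the stretch at 0.34, 0.28 and 0.27, on the other side of the gain threshold.

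Other measures of the probes moved with the stretch. The pool channel alone was 0.057 to 0.10 higher there than in the flanks on all 9 arrays, and probes were denser, at 451.4 per Mb against 354.0 before and 361.8 after. Over the 126 windows of 1 Mb, the Spearman correlation of probe density with the ratio was between 0.29 and 0.55 in 7 tumours, -0.02 in the parous tumour and -0.10 in MMTV-Cre transplant 1; windows of a chromosome share their array and are not independent. The part of probe density, of base composition or of copy number in this rise was not tested.

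**Figure D5:**
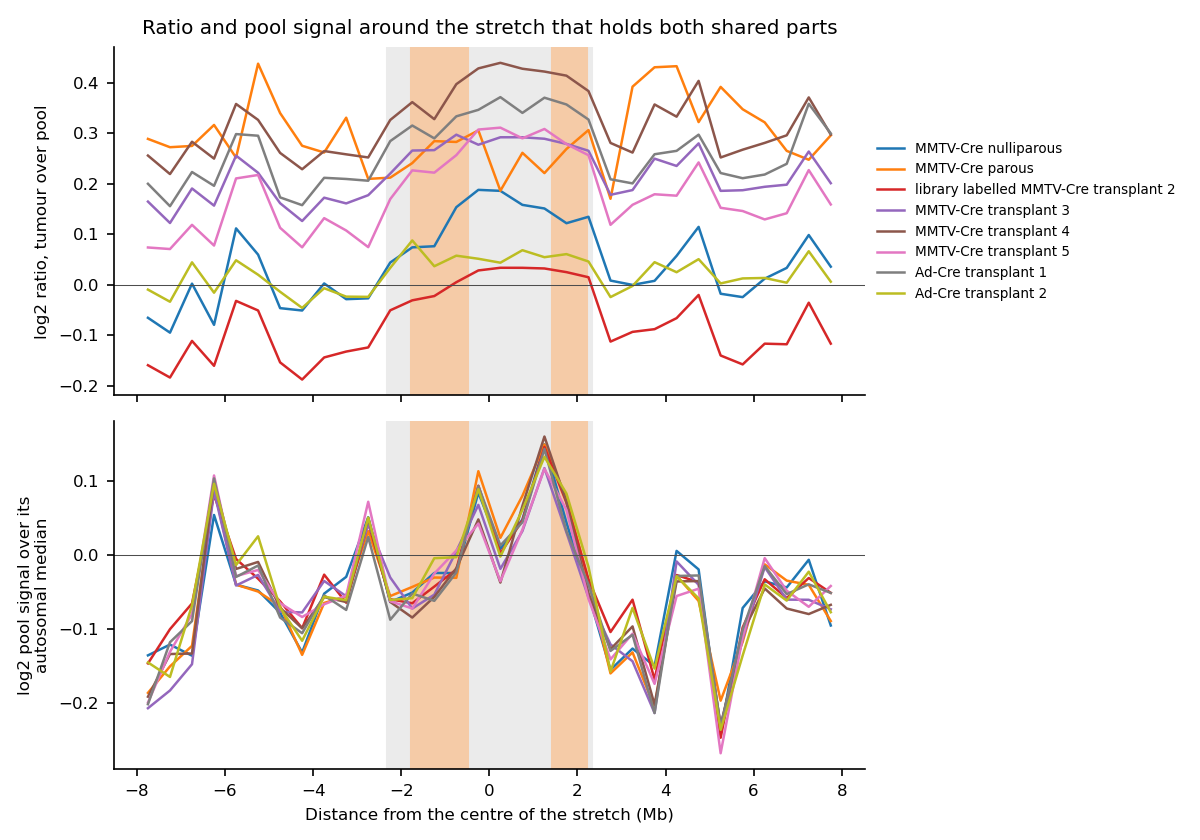
Median log2 ratio of tumour over pool (top) and of the pool signal over its autosomal median (bottom) in 500 kb windows around the centre of the stretch at 70.65 to 75.32 Mb, in Mb from its centre, for 8 tumours (MMTV-Cre transplant 1 is left out, since its own steps leave the scale). Grey marks the stretch and orange the 2 parts; ratios rise inside it by 0.05 to 0.13 in 7 of the tumours drawn, including 3 at or near 0, and not in the parous tumour.

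The same small steps recurred along the chromosome. Segment edges were compared over the 8 tumours other than MMTV-Cre transplant 1, joining edges up to 500 kb apart. At 49.38 to 49.40 Mb the level fell in 5 of 5 tumours that had an edge there, by a median of 0.0614, and these edges lay within 24.1 kb of each other. At 99.44 to 99.50 Mb it fell in 4 of 4, by a median of 0.153, and at 105.72 to 106.24 Mb it rose in 6 of 6, by a median of 0.155. The nulliparous tumour and the library labelled MMTV-Cre transplant 2, which had no broad gain, were among those with the first and the last of these edges. The steps were thus shared between gained and level tumours, with the same sign in each.

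With the segmentation used here, chromosome 8 windows gained in 6 or more tumours numbered 10, or 0.81%, and lay elsewhere. The matching share over all autosomal windows is not given here, so this count does not compare chromosome 8 with the other autosomes. At 31.3 to 32.2 Mb Ad-Cre transplant 1, the parous tumour and MMTV-Cre transplants 1, 3, 4 and 5 were called, with medians of 0.25, 0.32, 1.01, 0.24, 0.34 and 0.20 in that order. The nulliparous tumour was at -0.03, the library labelled MMTV-Cre transplant 2 at -0.13 and Ad-Cre transplant 2 at 0.07. The other window, 125.9 to 126.0 Mb, is the short locus below. No window was called in 6 or more tumours after within-array loess, with centring on the mode, with a penalty factor of 20 or at a threshold of 0.4, while 286 were after a normexp correction and 439 at a threshold of 0.15. Without the parous tumour, MMTV-Cre transplant 4, MMTV-Cre transplant 5 or Ad-Cre transplant 1 the number was 0, and without MMTV-Cre transplant 1 or MMTV-Cre transplant 3 it was 1. The windows counted here were therefore not stable to these choices.

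Several short loci deviated in most tumours, through a few probes each. At 76.51 to 76.58 Mb the mean over 11 probes stood above its flanks by 0.15 in the nulliparous tumour, -0.03 in that of the parous mouse, 0.72 in MMTV-Cre transplant 1, 0.53 in the library labelled MMTV-Cre transplant 2, 1.06 in MMTV-Cre transplant 3, 1.02 in MMTV-Cre transplant 4, 1.07 in MMTV-Cre transplant 5, 0.66 in Ad-Cre transplant 1 and 1.05 in Ad-Cre transplant 2, a mean of 0.69 ± 0.41 (SD, n = 9). It was high in tumours with and without the broad gain. Of its 11 probes, 6 differed from the flanks by 0.5 or more on average, and their pool signal was 0.244 of the autosomal median against 1.07 in the flanks.

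The locus at 125.94 to 126.00 Mb was above its flanks in 9 of 9 tumours, by between 0.12 and 0.60 and on average by 0.41 ± 0.17 (SD, n = 9). Here 8 of 35 probes differed by 0.5 or more, with a pool signal of 0.312 against 0.954 in the flanks. It was cut out as its own segment in 5 tumours, including the library labelled MMTV-Cre transplant 2 and Ad-Cre transplant 2, which had no broad gain. Ad-Cre transplant 1 had a short dip of its own at 16.94 to 16.99 Mb, -0.51 relative to its flanks over 35 probes, where the other 8 tumours were between -0.02 and 0.08. Low pool signal moved with the first 2 of these loci, and its part in them was not tested. All 3 were too short to affect a chromosome median.

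The 5 windows with the highest mean over the tumours were at 76.5, 37.4, 19.4, 87.1 and 118.6 Mb. At 37.4 Mb the value was 0.11 in the nulliparous tumour, 0.39 in that of the parous mouse, 0.89 in MMTV-Cre transplant 1, -0.06 in the library labelled MMTV-Cre transplant 2, 0.65 in MMTV-Cre transplant 3, 0.71 in MMTV-Cre transplant 4, 0.73 in MMTV-Cre transplant 5, 0.62 in Ad-Cre transplant 1 and 0.50 in Ad-Cre transplant 2, with 13 probes. The window at 19.4 Mb, with 23 probes, had nearly the same order: 0.05 in the nulliparous tumour, 0.40 in that of the parous mouse, 1.11 in MMTV-Cre transplant 1, -0.10 in the library labelled MMTV-Cre transplant 2, and 0.52 to 0.61 in the other 5. The 5 broadly gained tumours lay between 0.39 and 0.73 at both windows, and the nulliparous tumour and the library labelled MMTV-Cre transplant 2 were low at both. Ad-Cre transplant 2, whose chromosome 8 median was 0.01, was high at both as well. The window at 19.4 Mb overlapped a short locus at 19.33 to 19.47 Mb. There 6 of 25 probes differed from the flanks by 0.5 or more, with a pool signal of 0.290 against 0.986 in the flanks. The part of low pool signal in this window was not tested.

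At 118.6 Mb the mean was 0.34 ± 0.20 (SD, n = 9), with 8 tumours above 0 and MMTV-Cre transplant 1, in its distal loss, at -0.07. The lowest window means were small: -0.09 ± 0.16 at 51.3 Mb, -0.09 ± 0.26 at 130.3 Mb, -0.05 ± 0.15 at 99.8 Mb and -0.05 ± 0.23 at 65.7 Mb (SD, n = 9), besides the window at 117.3 Mb given above. In each the values of single tumours lay on both sides of 0. No window of chromosome 8 was below 0 in all 9 tumours, whereas 53 windows, 4.29%, were above 0 in 9 of 9. The matching shares over all autosomal windows are not given here, so these counts do not compare chromosome 8 with the other autosomes.

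Against the pool, limma's moderated test with Benjamini-Hochberg adjustment over all 23354 autosomal windows placed 499 of the 1235 chromosome 8 windows above 0 (40.4%) and 0 below. Over all autosomal windows it called 17.1% higher and 19.8% lower. Chromosome 8 was chosen for its level in this contrast, so the count is a description. Without Ad-Cre transplant 1 it was 278, and 623 if the library labelled MMTV-Cre transplant 2 was left out. The mean of the 9 tumours was above 0 in 1162 of the 1235 windows, and the median of these means was 0.137 against -0.0187 over all autosomal windows.

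The mode of Cre delivery, which the choice of chromosome did not use, was compared next. The chromosome 8 median was 0.13 ± 0.17 (SD, n = 2) in the Ad-Cre tumours and 0.15 ± 0.14 (SD, n = 7) in the MMTV-Cre tumours, a difference of -0.02 that was smaller than the spread within either group (exact two-sided permutation test over 36 groupings, p = 0.889, smallest possible 0.0278). Each group held tumours with and without the broad gain: 0.25 and 0.01 in the Ad-Cre tumours and 0.32 to -0.08 in the MMTV-Cre tumours. limma called 0 of 1235 chromosome 8 windows higher or lower, with a smallest adjusted p of 0.843, and 1 window had an unadjusted p under 0.05. Over all autosomal windows 0% were called in either direction. Within the third scan day, which held 2 tumours of each kind, 0 chromosome 8 windows were called. Over all 23354 autosomal windows that fit called 37 higher and 124 lower. On that day both Ad-Cre tumours were transplants and both MMTV-Cre tumours were not. Cre delivery and transplantation therefore cannot be told apart within it. In the comparison of all 9 tumours, too, the Ad-Cre group held only transplants scanned on the third day. A p-value above the threshold does not show that the 2 kinds of tumour are alike.

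Transplants were compared with the tumours of the nulliparous and parous mice in the same way. The MMTV-Cre transplants had a median of 0.14 ± 0.15 (SD, n = 5) and the other 2 MMTV-Cre tumours 0.16 ± 0.17 (SD, n = 2), a difference of -0.02 (exact two-sided permutation test over 21 groupings, p = 0.952, smallest possible 0.0476). limma called 0 chromosome 8 windows in either direction, with a smallest adjusted p of 0.788 and 1 window at an unadjusted p under 0.05; over all autosomal windows it called 0.00428% higher and 0% lower. Without the library labelled MMTV-Cre transplant 2, limma called 0 windows of the chromosome, and 27 of 1235 had an unadjusted p under 0.05. Over all autosomal windows that fit called 29 higher and 0 lower, and 1388 of 23354 had an unadjusted p under 0.05. The 27 were thus a smaller share than over all autosomes. The transplants were scanned on the first and second days and the other MMTV-Cre tumours on the third, so that scan day and transplantation cannot be told apart. In this comparison too, both groups held tumours with and without the broad gain.

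Mouse chromosome 8 carries genes that act in the pathways deleted in these tumours and in breast cancer. The 23 genes listed for this chromosome were all assigned to it by the RefSeq gene table of GRCm38.p6, among 1043 coding genes. E2f4, a repressive E2F bound by pocket proteins, and Rbl2, a close relative of Rb, belong to the pathway of the deleted Rb. Ing1 and Ing2, chromatin readers that cooperate with p53, and Cdkn2aip, a binding partner of the ARF tumour suppressor, act around p53. Fgfr1 is a growth factor receptor, Irs2 an adaptor of the insulin receptor and Ikbkb a kinase that activates NF-kappaB, and Junb and Jund are Jun family transcription factors. Cdh1, which encodes E-cadherin, Wwox and Fat1 are known as tumour suppressors of epithelia.

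Neither the array files nor the table place these genes on single probes, because chromosome 8 probes lie beyond the table's last chromosome 8 gene and the positions are therefore of another build. A gene can be given a level only where the whole chromosome shared one. In the parous tumour that range was 0.23 to 0.44 over segments, in MMTV-Cre transplant 4 0.19 to 0.39, in MMTV-Cre transplant 3 0.10 to 0.26 and in MMTV-Cre transplant 5 0.05 to 0.30, counting segments of 10 or more bins. In MMTV-Cre transplant 1, where segments ran from -0.43 to 1.85, and at the distal end of Ad-Cre transplant 1, no gene was assigned a level. Other listed genes were Ctcf, an organiser of chromatin loops, Cul4a, a ubiquitin ligase scaffold, Calr, a chaperone of the endoplasmic reticulum, Prkaca, the catalytic subunit of protein kinase A, Mmp2, a matrix protease, Mcph1, which guards chromosome condensation, Tnks, a poly-ADP-ribosyl transferase at telomeres, and the vessel growth factors Vegfc and Angpt2.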

How the data were processed

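Tumour and pool DNA were hybridised together, 1 array for each of 9 tumours. Per the file headers, the authors read scans of Agilent design 027414 with Feature Extraction 10.5.1.1, which subtracted background, detrended and dye-normalised the spot intensity values linearly. The deposited ratios of tumour to pool are on a log10 scale, and rounded copies make up the deposited series table. Per probe, processed signals were turned into a log2 ratio, leaving out 1597 to 2115 spots per array that were not well above background in the pool channel or carried outlier flags, and centred on the autosomal median. Bins of 5 probes were segmented by penalised least squares (PELT, penalty factor 10, at least 2 bins). Gained segments were at 0.25 or more, lost ones at -0.25 or less, and breakpoints were steps of 0.2 or more. Windows of 100 kb with at least 3 probes entered the limma fit (version 3.58.1, under R 4.3.3), Benjamini-Hochberg adjusted over all autosomal windows, threshold 0.05. The groups follow the labels, and groups were also compared by exact permutation. Segments named are those at 1 or more or -0.4 or less over at least 300 kb, windows named are the 5 highest and 5 lowest means, at most 1 per 10 Mb, and genes come from a list of 23, of which 1 is not reported here. The chromosome, its parts and these lists were chosen with earlier results of these data known. Alternatives were a normexp correction (offset 50) of median signals, loess, other centring, the series table, no filter, other segmentation, thresholds and windows, scan day, and each tumour left out. The segmentation and the window test were tested on simulated data. Precision is limited by the number of arrays. Other tools were matplotlib 3.10.9, statsmodels 0.14.6, numba 0.67.0, scipy 1.17.1, pandas 2.3.3, numpy 2.4.6 and Python 3.11.15. No genome was used, and the gene table (GRCm38.p6) gave names and chromosomes only.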

Additional observations from a re-analysis of the deposited data

Results flagged for a closer look

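Among the 5 MMTV-Cre transplants, 27 quantities were checked for a sample far from the other 4, and 6 were found. Chance meets this rule in about 1 of 20 groups, but that rate does not apply to quantities picked from these same data. Chromosome 8 was chosen for its many-step profile in 1 of these transplants, and the windows were picked by their means over the same tumours. The 6 are therefore a description and not a test. MMTV-Cre transplant 1 stood apart by 23.3% of chromosome 8 lost against 0% in the other 4, by 70 segments against 7 to 15, by 63 breakpoints against 0 to 3 and by 12 copy levels against 2 to 3. These 4 quantities describe the same stepped profile and are not independent. It also stood apart in the window at 87.1 Mb, at 1.84 against 0.00 to 0.44. In the window at 37.4 Mb the value that stood apart was that of the library labelled MMTV-Cre transplant 2, at -0.062 against 0.65 to 0.89.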

How the results depend on the processing

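No paired analysis was possible because the tumour numbers used here are only names and the labels match no tumours across groups. No result of the report changed its sign past a threshold under any setting run. The mean percent of chromosome 8 gained, 26.6%, became 56.1% at a gain threshold of 0.15, 4.27% at 0.4, 51.97% after normexp and 15.4% with centring on the mode, which also took the median of Ad-Cre transplant 1 from 0.25 to 0.10. The breakpoints of MMTV-Cre transplant 1, 63, became 41 at a step of 0.4. Those of the other 8 tumours, 0 to 6, became 2 to 22 without the filter, 2 to 20 at a penalty factor of 5, 4 to 15 at a step of 0.1, 0 to 10 after loess and 0 to 2 at a penalty factor of 20. Windows gained in 6 or more tumours, 10, became 286 after normexp, 0 after loess, 0 with centring on the mode, 3 without the filter, 16 and 0 at penalty factors of 5 and 20, 92 with bins of 10 probes, and 439 and 0 at thresholds of 0.15 and 0.4, and 0 to 10 with 1 tumour left out. Windows above the pool, 499, became 319 with centring on the mode, 766 with scan day as a random block and 103 of 251 with windows of 500 kb, and 278 to 623 with 1 tumour left out. The causes were not tested, except that larger windows are fewer. The copy levels of MMTV-Cre transplant 1 ranged from 9 to 18. The mean of the chromosome 8 medians stayed between 0.12 and 0.21, and the rise of the stretch between 0.06 and 0.12, an alternative chosen after seeing the data. The difference in chromosome 8 medians ranged from -0.14 to 0.10 for Ad-Cre against MMTV-Cre and from -0.14 to 0.10 for transplants against the others with 1 tumour left out, with exact permutation p of 0.50 or more. Neither comparison between groups called a chromosome 8 window under any setting, with limma counts of 0 throughout.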
